A study of Homo sapiens with 2 samples.

Results

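Metallothioneins and zinc transporters were examined in SBC5, an established human small cell lung cancer cell line, and in a cisplatin-resistant form of it. The genes were chosen by name: the metallothioneins MT2A and MT1X, the zinc-sensing transcription factor MTF1, the transporters SLC30A1, SLC30A5, SLC30A7 and SLC30A9, and the transporters SLC39A6, SLC39A7 and SLC39A14. All rows of the deposited expression table that carry one of these 10 names were taken. This gave 9 genes with 14 loci, of 12405 genes compared and 19217 loci in all, and SLC39A7 was not analysed here. The genes were picked with results of these data known, because MT2A, MT1X and SLC30A1 had already been seen to be lower in the resistant cells, so the values below describe the 2 libraries and test nothing.

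One library came from parental SBC5 cells and one from SBC5 cells made resistant by stepwise exposure to the DNA-crosslinking platinum drug cisplatin at 1, 2, 4 and 20 µg/ml. Both cultures were kept in medium with serum, and RNA with a poly(A) tail was sequenced. Whether the resistant cells are 1 clone or a mixed population, and whether the drug was present at harvest, is not given in the sources used here. There was 1 library per group, so no difference has a replicate check and no p-value was computed. Levels are FPKM, fragment counts divided by locus length and library size. A gene split into several loci can have very different levels at each, so levels of different genes are set side by side only roughly. The log2 ratio is that of resistant over parental FPKM after adding 1 FPKM to both, and a gene passed the rule of size at 1 or above or at -1 or below. Of the 12405 genes compared, 2.70% were at least 2-fold lower in resistant cells and 3.28% at least 2-fold higher. Every count of genes past 2-fold below stands beside these shares. All FPKM values added up to 1019555 for parental and 1081047 for resistant cells, and the number of fragments behind a value is unknown.

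Of small cell lung cancer subtype factors, YAP1 had 76.6 FPKM in parental against 84.7 in resistant cells. Of 7 neuroendocrine markers 5 were measured, and 1 passed 2-fold: SCG2, which encodes a secretory granule protein, had 108.7 and 20.1 FPKM (log2 ratio -2.38). UCHL1 had 251 and 259 FPKM, synaptophysin (SYP) 8.56 and 8.62, CHGB 0.702 and 1.19, and NCAM1 0.821 and 1.64. Of 5 epithelial markers 2 were measured, and E-cadherin (CDH1) was the 1 past 2-fold, with 0.536 and 4.81 FPKM (1.92), while KRT8 had 2.09 and 2.36 FPKM. NEUROD1, POU2F3, CHGA, INSM1, EPCAM, KRT18 and KRT19 were not analysed here. Of markers of other cells, 2 of 6 haematopoietic, 0 of 5 endothelial and 3 of 7 fibroblast genes were measured, and they differed in both directions. PDGFRA (48.0 and 10.1 FPKM, log2 ratio -2.14) and HBB (2.69 and 0.472 FPKM, -1.32) were at least 2-fold lower in resistant cells, and COL3A1 (1.18 and 7.51 FPKM, 1.97) was at least 2-fold higher. CORO1A, with 26.1 and 16.8 FPKM, and COL1A1, with 2.34 and 3.85 FPKM, lay within 2-fold. Whether other cells had a part in the values of the zinc genes was not tested.

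Zinc is held at a very low free concentration in the cytosol. Metallothioneins are small cysteine-rich proteins that bind zinc and copper, and also cadmium and platinum. Transporters of the SLC30 family move zinc out of the cytosol, across the plasma membrane or into organelles, and those of the SLC39 family move it in. MTF1 binds metal response elements when zinc rises and drives metallothionein genes and SLC30A1, whose product is the zinc exporter of the plasma membrane.

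The promoters of the 3 genes that were lower are shown because the core of the metal response element can be read in them. The sequences are RefSeq's on GRCh38.p14, from 250 bases before to 50 after the annotated start, written 5′ to 3′ on the gene's strand. The gene spans given below are from GENCODE, whose gene starts differ from these, so positions hold for RefSeq's start only. Capitals mark each match to the 7 letters of the core, TGCACNC or TGCGCNC on either strand, where matches may overlap each other. MT2A lies at chr16:56608334-56608633 on the plus strand, MT1X at chr16:56682220-56682519 on the plus strand and SLC30A1 at chr1:211579112-211579411 on the minus strand.
MT2A: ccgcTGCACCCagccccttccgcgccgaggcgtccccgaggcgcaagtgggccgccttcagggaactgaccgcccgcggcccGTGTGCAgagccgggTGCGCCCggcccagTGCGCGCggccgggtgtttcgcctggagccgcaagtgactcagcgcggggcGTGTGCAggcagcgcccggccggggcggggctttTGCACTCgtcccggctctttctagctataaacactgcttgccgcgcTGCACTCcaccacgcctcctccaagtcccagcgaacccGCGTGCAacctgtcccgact
MT1X: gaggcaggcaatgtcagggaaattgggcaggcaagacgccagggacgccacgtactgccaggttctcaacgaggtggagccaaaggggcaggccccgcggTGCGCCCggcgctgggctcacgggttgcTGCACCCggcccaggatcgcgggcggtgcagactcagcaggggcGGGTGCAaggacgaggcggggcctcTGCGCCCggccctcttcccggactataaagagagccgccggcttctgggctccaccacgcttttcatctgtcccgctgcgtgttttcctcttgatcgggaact
SLC30A1: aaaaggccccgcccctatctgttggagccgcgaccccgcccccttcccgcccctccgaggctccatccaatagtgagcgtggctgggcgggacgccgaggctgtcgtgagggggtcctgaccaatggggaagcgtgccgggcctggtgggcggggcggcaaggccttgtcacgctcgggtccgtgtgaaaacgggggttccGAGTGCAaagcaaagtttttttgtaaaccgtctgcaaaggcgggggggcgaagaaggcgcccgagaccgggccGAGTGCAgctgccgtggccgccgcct

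The MT2A promoter held 8 matches, from position -246 to position 31. The MT1X promoter held 4, at positions -150, -122, -78 and -53. The SLC30A1 promoter held 2, both GAGTGCA, at positions -49 and 25, where the start is position 1 and a match is placed by its first base. Of 27305 promoters of this length, 29.3% held at least 1 match, 8.59% at least 2, 0.593% at least 4 and 0.0220% at least 8. Among promoters of the genes compared these shares were 39.6%, 12.9%, 0.8004% and 0.0329%. The promoters of MTF1, SLC30A5, SLC30A7 and SLC30A9 held no match, and that of SLC39A6 held 1, at position -17. A match is a run of letters, not a site shown to be bound, and a promoter without one says only that these letters are not in this window.

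MT2A was the more abundant metallothionein. It had 240 FPKM in the parental against 69.0 FPKM in the resistant library, a level 3.47-fold lower in resistant cells and a log2 ratio of -1.78. In parental cells it ranked 377th of 12405 genes by level, and in resistant cells 1597th. Only 2 genes of at least its parental level had a lower log2 ratio, SLC30A1 and PARS2, and both stood in the table with a locus of no strand. The gene spans chr16:56608199-56609497 on the plus strand in GENCODE release 29.

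MT1X, a second metallothionein of the same cluster, had 27.6 FPKM in parental against 4.60 FPKM in resistant cells, 5.99-fold lower, with a log2 ratio of -2.35. This was the 29th lowest of 12405 log2 ratios. The gene spans chr16:56682424-56684196 on the plus strand, 72.9 kb from MT2A. The MT2A level was 8.69 times the MT1X level in parental cells and 15.0 times in resistant cells. Together they came to 267 FPKM in parental against 73.6 FPKM in resistant cells, 3.63-fold lower. Other metallothioneins, among them MT1E, MT1F, MT1G and MT3, were not analysed here. Metallothionein transcripts are closely similar to each other, and how reads shared between copies were counted is not given in the sources used here, so the split between MT2A and MT1X is uncertain.

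MTF1, the factor that reads zinc, had 6.97 FPKM in parental against 8.67 FPKM in resistant cells, a log2 ratio of 0.28. Its level was thus slightly higher in the library where MT2A and MT1X were lower, and it did not pass the rule of size. The gene spans chr1:37809567-37859620 on the minus strand.

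**Figure D1:**
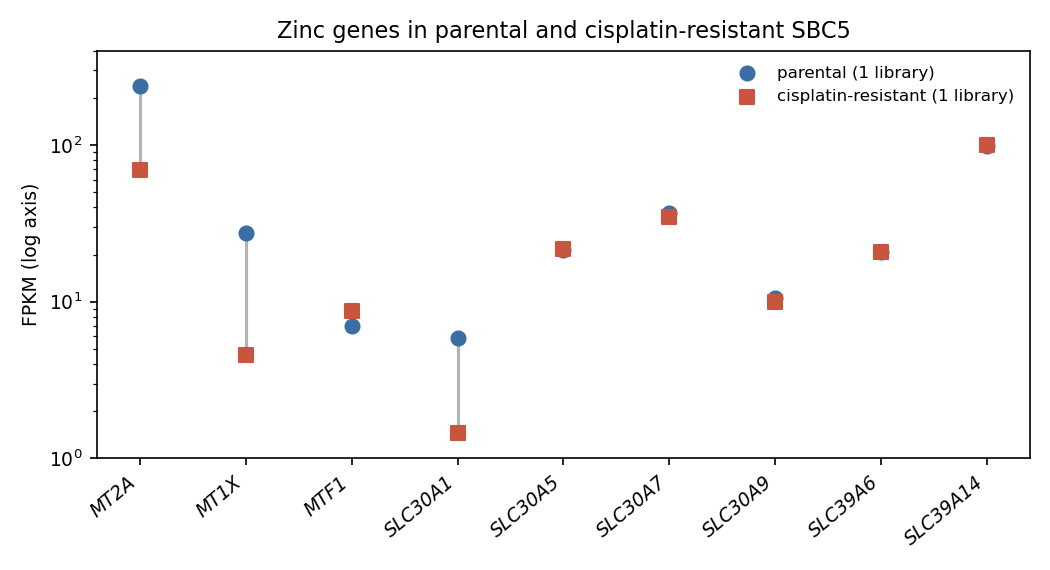
FPKM (log axis) of the 9 zinc genes in the parental library (circles) and the cisplatin-resistant library (squares), 1 library each, at the locus with an assigned strand; grey lines join the 2 values of a gene. MT2A, MT1X and SLC30A1 lie lower in the resistant library, and the symbols of the transporters SLC30A5, SLC39A6 and SLC39A14 cover each other.

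SLC30A1 was represented by 6 loci, and all 6 were at least 2-fold lower in resistant cells. The gene spans chr1:211571568-211578742 on the minus strand. Loci follow each other in the table in a plus, a minus and a last part on each chromosome, and the last part was taken to hold loci without a strand. In the minus part SLC30A1 had 5.86 FPKM in parental against 1.44 FPKM in resistant cells, 4.06-fold lower, with a log2 ratio of -1.49. The other 5 loci had no strand and followed each other in the table.

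Among those 5 the most abundant had 284 FPKM in parental against 20.2 FPKM in resistant cells, 14.1-fold lower, and its log2 ratio of -3.75 was the lowest of the 12405 genes. The next had 93.7 and 5.18 FPKM, 18.1-fold lower. The third had 11.7 and 0.508 FPKM, 23.1-fold lower. The last ones had 4.03 and 1.11 FPKM (3.63-fold) and 2.91 and 0.484 FPKM (6.02-fold). The rank of SLC30A1 rests on these loci, because at the locus with a strand its log2 ratio lay above those of MT2A and MT1X. The order against MT2A depends on the added 1 FPKM. Without it the log2 ratio was -2.02 at that locus, -1.79 for MT2A and -2.58 for MT1X. With all loci summed SLC30A1 had 402 and 28.9 FPKM, a log2 ratio of -3.75. FPKM is divided by locus length, so this sum is not the level of the gene. It is mostly the locus of 284 FPKM, so its ratio is no separate estimate.

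The share of loci at least 2-fold lower was 3.28% of 15944 named loci and 7.39% of 5924 loci without a strand, and the share at least 2-fold higher was 4.98% and 10.9%. Among 132 names with 5 or more measured loci, SLC30A1 and SKAP1 were the 2 whose loci were all at least 2-fold lower, and LOC439933 was the 1 whose loci were all at least 2-fold higher. SKAP1 and LOC439933 are named because of that count, after their values were seen. The loci around SLC30A1 in the table had no gene name. Of the 6 between SLC30A1 and the next named loci, SYT14 and NEK2, 5 were at least 2-fold lower, against 9.89% of 2325 unnamed loci without a strand. Those directly before SLC30A1 had 2.74 and 0.234, 9.45 and 1.28, and 5.01 and 0.599 FPKM in parental and resistant cells, and those directly after had 6.56 and 1.67, and 2.93 and 0.795 FPKM. The remaining one, beside SYT14, had 1.17 and 1.98 FPKM. The table records no position for a locus, so whether the unnamed loci belong to the SLC30A1 transcript was not tested. If they do, the 5 that were lower are not separate observations.

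**Figure D2:**
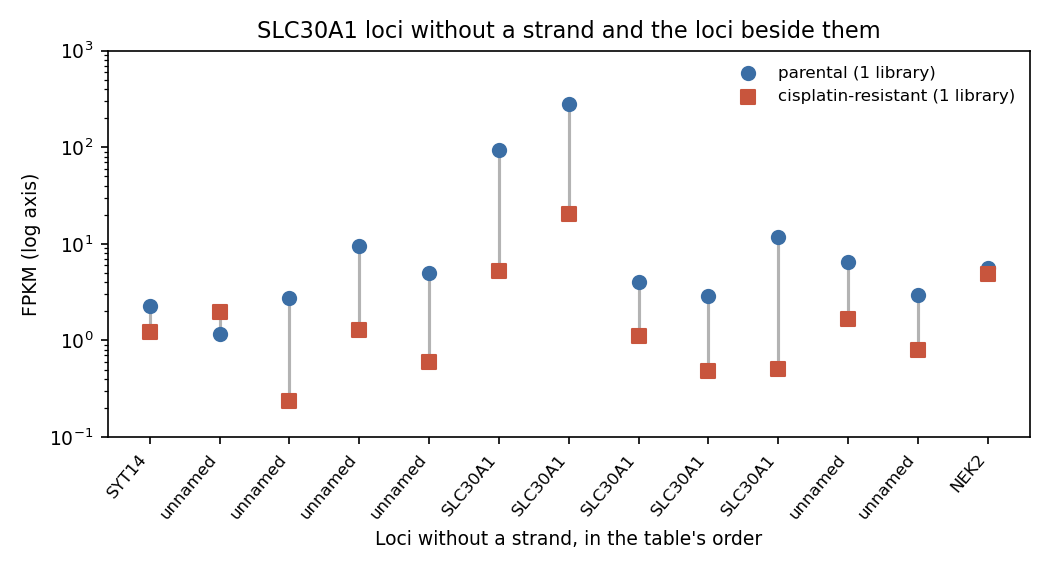
FPKM (log axis) of the 5 SLC30A1 loci without a strand and of the loci beside them, in the table's order from SYT14 to NEK2; circles are the parental library and squares the cisplatin-resistant library. All 5 SLC30A1 loci and 5 of the 6 unnamed loci are lower in the resistant library. SYT14 has 2.25 and 1.22 FPKM, and NEK2 has 5.64 and 4.90 FPKM at this locus without a strand.

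The precision of these folds differs between loci. In the table, ratios of low values are often ratios of small whole numbers times 1 factor, 0.996. This factor was taken as the relative worth of 1 read in the 2 libraries, which was not tested. Of 7591 loci that were below 5 FPKM but not 0 in either library, 58.7% matched such a ratio with whole numbers up to 25, within a relative tolerance of 2e-05, against 0.493% on average with other factors. Of the 5 SLC30A1 loci without a strand, 4 matched, with parental to resistant ratios of 14 to 1, 18 to 1, 23 to 1 and 6 to 1. Those with 284 and 93.7 FPKM in parental cells were above 5 FPKM in both libraries, outside the loci used for that share. Of the unnamed loci beside them, some matched none and the others matched 22 to 3, 25 to 3, 11 to 3 and 10 to 17. Such ratios can arise from 1 read or a few reads in the resistant library, or from larger multiples. MT2A, MT1X, MTF1 and the SLC30A1 locus with a strand matched no ratio of whole numbers up to 25.

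The other transporters among the members had nearly equal levels in both libraries. SLC30A5, which loads zinc into the secretory pathway as a partner of SLC30A6, had 21.4 FPKM in parental against 21.7 in resistant cells. SLC30A7, a zinc transporter of the Golgi, had 36.7 and 34.5 FPKM. SLC30A9, a mitochondrial zinc transporter, had 10.6 and 9.99 FPKM. All 3 had log2 ratios between -0.09 and 0.02. SLC39A6, a zinc importer of the plasma membrane, had 20.8 and 20.9 FPKM. SLC39A14, an importer of zinc, iron and manganese, had 99.3 and 100.6 FPKM and was the most abundant of these 5. On the deposited scaling, SLC30A5, SLC39A6 and SLC39A14 lay just above 0 and SLC30A7 and SLC30A9 just below, and once the libraries were brought to equal sums all 5 lay below 0, between -0.17 and -0.06.

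By the rule of size, 3 of the 9 members were lower (MT2A, MT1X and SLC30A1), against 2.70% of the 12405 genes, and 0 were higher, against 3.28%. The members were chosen with these values known, so nothing is read from that count. The 6 within the limits had log2 ratios from -0.09 to 0.28. The median log2 ratio was -0.08 over the 9 members and -0.04 over all genes compared.

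**Figure D3:**
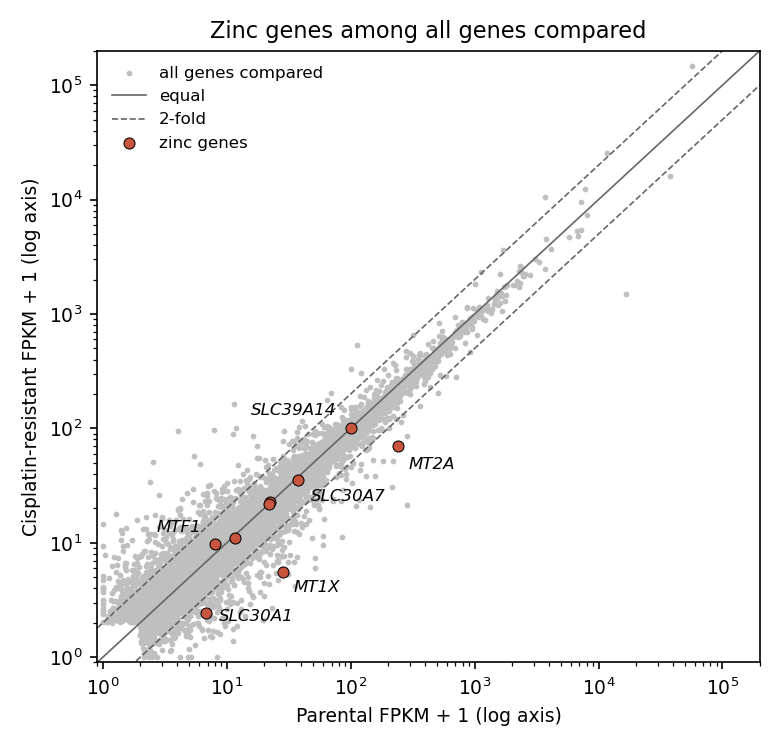
Parental FPKM + 1 against cisplatin-resistant FPKM + 1 (both log axes) for the 12405 genes compared (grey) and the 9 zinc genes (red, at the locus with a strand). MT2A, MT1X and SLC30A1 lie below the lower 2-fold line, and the other 6 lie within the 2-fold lines.

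The full transporter families were set beside the members. Of 10 SLC30 genes 7 were measured, of which SLC30A1 alone passed 2-fold and 6 did not, with a median log2 ratio of -0.08. SLC30A6 had 34.2 FPKM in parental against 32.3 in resistant cells. SLC30A4, an exporter into vesicles, had 5.55 and 5.41 FPKM. SLC30A3, known from synaptic vesicles, had 5.52 and 3.99 FPKM (log2 ratio -0.38). In parental cells the order by level was SLC30A7, SLC30A6, SLC30A5, SLC30A9, SLC30A1 at its locus with a strand, SLC30A4 and SLC30A3. Without replicates, whether neighbours in this order differ beyond their spread cannot be told.

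Of 14 SLC39 genes 10 were measured and none passed 2-fold in either direction. Their median log2 ratio was 0.01, and -0.07 after the libraries were brought to equal sums. SLC39A1, an importer of the plasma membrane, had 100.8 FPKM in parental against 97.1 in resistant cells, a level close to that of SLC39A14. SLC39A10, whose transcript is known to fall when zinc is high through MTF1, had the highest log2 ratio of the family, with 11.0 and 17.1 FPKM (0.59). Its 2 loci without a strand went the other way, with 1.90 and 0.252 FPKM and 1.96 and 0.150 FPKM. Those matched ratios of 15 to 2 and 13 to 1. SLC39A8, an importer of zinc and manganese, had the lowest log2 ratio, with 10.6 and 6.90 FPKM (-0.56). SLC39A13 had 8.11 and 10.3 FPKM (0.31), SLC39A11 had 6.04 and 5.14 FPKM (-0.20), SLC39A9 had 12.4 and 13.3 FPKM (0.09), and SLC39A3 had 14.1 and 13.4 FPKM (-0.06). SLC39A4 shared a locus with CPSF1, at 90.6 and 104.8 FPKM, and the part of each gene in it is unknown.

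**Figure D4:**
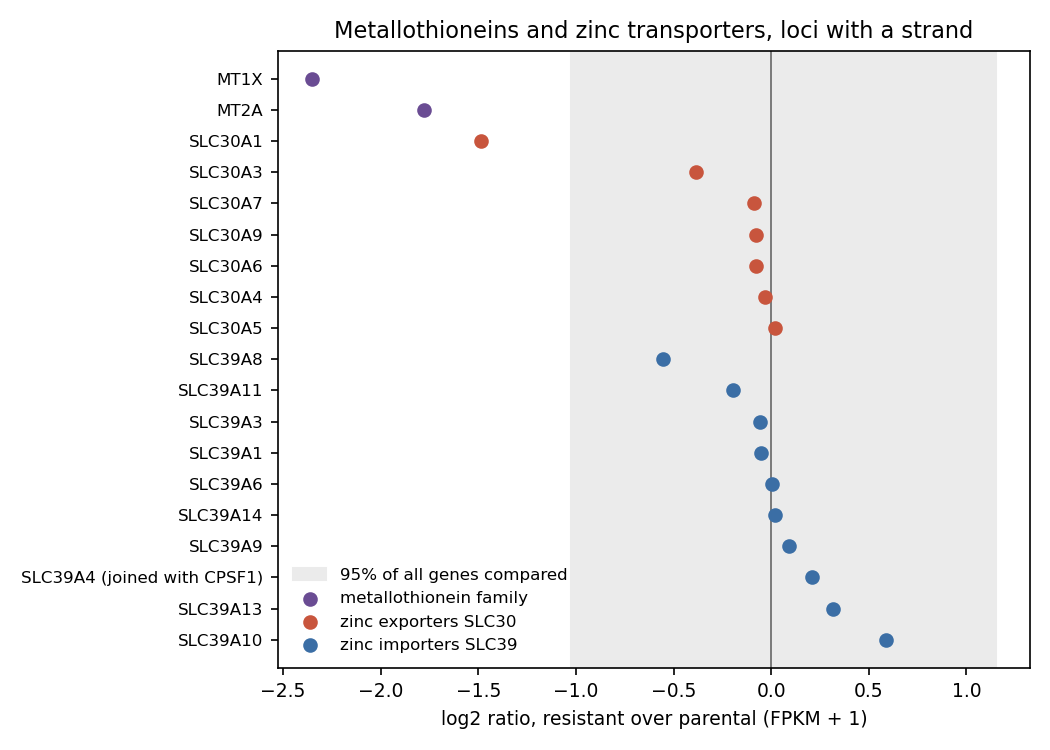
Log2 ratio of resistant over parental FPKM + 1 for the measured metallothioneins, SLC30 exporters and SLC39 importers at loci with a strand; the grey band holds 95% of all genes compared, from -1.03 to 1.15. MT1X, MT2A and SLC30A1 lie to the left of the band, and the other points lie within it.

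Other carriers of zinc were within 2-fold. Of 9 listed genes 3 were measured: the metal ion importer SLC11A2 (24.9 and 27.1 FPKM), the channel TRPM7 (16.1 and 14.1 FPKM) and the lysosomal channel MCOLN1, joined with PNPLA6 in 1 locus (24.7 and 27.6 FPKM). Zinc-dependent enzymes of the secretory pathway, several of which are known to need the zinc that SLC30A5, SLC30A6 and SLC30A7 deliver, were measured for 6 of 12 genes. All 6 lay between -0.13 and 0.13 on the log2 scale, and ENPP1, an ectoenzyme that cleaves nucleotides, had 9.96 and 9.99 FPKM. The others were PIGN, PIGO and PIGG, which build the lipid anchors of surface proteins, MPPE1, which trims them, and the sphingomyelinase SMPD1. Among partners of SLC39 importers, 4 of 5 were measured and none passed 2-fold. The catalytic subunits of casein kinase 2, known to phosphorylate SLC39A7, had 37.5 and 32.5 FPKM (CSNK2A1) and 42.7 and 43.5 FPKM (CSNK2A2). NCAM1, a partner of SLC39A6 and SLC39A10, had 0.821 and 1.64 FPKM (0.53).

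Regulators of metallothionein transcription were measured for 10 of 11 listed genes, and none passed 2-fold. Of the 10, 9 lay above 0 and 1 below, while at least 5472 of all 12405 genes compared lay above 0. The median log2 ratio of the regulators was 0.12, beside -0.04 over all genes compared. With an equal sum of both libraries the median was 0.04. STAT3, which drives metallothioneins in the acute phase response, had 8.98 and 12.0 FPKM (0.38). NFE2L2, the antioxidant response factor NRF2, had 65.3 and 83.9 FPKM (0.36), and its inhibitor KEAP1 had 30.5 and 36.2 FPKM (0.24). The general factor SP1 had 22.1 and 23.6 FPKM (0.09), and USF1, which binds metallothionein promoters, had 28.97 and 26.7 FPKM (-0.11). The coactivator EP300 had 51.5 and 56.6 FPKM (0.13). USF2 (47.7 and 49.5 FPKM) and the heat shock factor HSF1 (47.9 and 48.1 FPKM) were near equal.

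NR3C1, the glucocorticoid receptor, which induces MT2A, had 24.0 and 26.0 FPKM (0.11). Of 10 listed targets of the receptor 8 were measured, with a median log2 ratio of -0.09. Of these, 1 was at least 2-fold lower, against 2.70% of all genes compared, and 0 were higher, against 3.28%. The lower one was ERRFI1, a feedback inhibitor of the EGF receptor, with 17.5 and 7.37 FPKM (-1.14). The joined FKBP5 and LOC285847 locus had 35.3 and 26.5 FPKM (-0.40), and KLF9 had 30.2 and 22.9 FPKM (-0.38). TSC22D3, a mediator of glucocorticoid action, had 4.31 and 3.98 FPKM (-0.09), PER1 had 8.61 and 8.04 FPKM (-0.09), and the phosphatase DUSP1 had 14.1 FPKM in both. CEBPD had 5.58 and 5.91 FPKM (0.07) and SGK1 had 2.28 and 3.49 FPKM (0.45).

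Genes induced by metals and damaged proteins were measured for 9 of 13 listed names, with a median log2 ratio of 0.04. Of these, 1 was at least 2-fold higher, against 3.28% of all genes compared, and 0 were lower, against 2.70%. HMOX1, the haem oxygenase induced by cadmium, had 20.2 and 27.5 FPKM (0.43). The thioredoxin reductase gene TXNRD1 was the higher one, with 80.1 and 174 FPKM (1.11) at its locus with a strand. It had 3 loci, and the one used in the count and median had no strand, with 3677 and 10533 FPKM (1.52). SEPW1, the selenoprotein W gene, had 50.2 and 93.2 FPKM (0.88). The chaperone genes HSPB1 (373 and 381 FPKM), HSPH1 (266 and 248 FPKM) and DNAJB1 (41.2 and 42.4 FPKM) had near equal levels, and their cofactor BAG3 had 33.0 and 28.5 FPKM (-0.20). The catalytic and modifier subunits of glutamate-cysteine ligase, which starts glutathione synthesis, had 47.7 and 36.6 FPKM (GCLC) and 35.8 and 37.5 FPKM (GCLM).

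Within 500 kb of MT2A on chromosome 16, 9 other measured genes were compared, and MT1X alone of them was at least 2-fold lower. On one side BBS2, a cilium gene 87.9 kb away, had 17.3 and 17.9 FPKM (log2 ratio 0.04). On the other side NUP93, a nuclear pore gene 45.9 kb beyond MT1X, had 70.7 and 63.9 FPKM (-0.15). Further out, NLRC5, a regulator of MHC class I genes 380 kb from MT2A, was listed at 0 among parental cells and at 3.02 FPKM among resistant cells, and was the 1 neighbour past 2-fold in the higher direction. BBS2, NUP93, GNAO1, NUDT21, OGFOD1, HERPUD1 and CPNE2 lay within 2-fold.

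Around SLC30A1 on chromosome 1, 7 genes were measured within 500 kb, and none passed the rule of size, which adds 1 FPKM. All 7 lay below 0, as did at least 6886 of all 12405 genes compared. The median log2 ratio of the 7 was -0.40, beside -0.04 over all genes compared. The nearest was NEK2, a centrosome kinase 79.9 kb away, with 32.9 and 29.02 FPKM (-0.17). On the other side LINC00467, a noncoding RNA gene 136 kb away, had 26.4 and 13.1 FPKM (-0.96). It lay closest to the limit among the 7, and without the added 1 FPKM its levels were just over 2-fold apart.

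**Figure D5:**
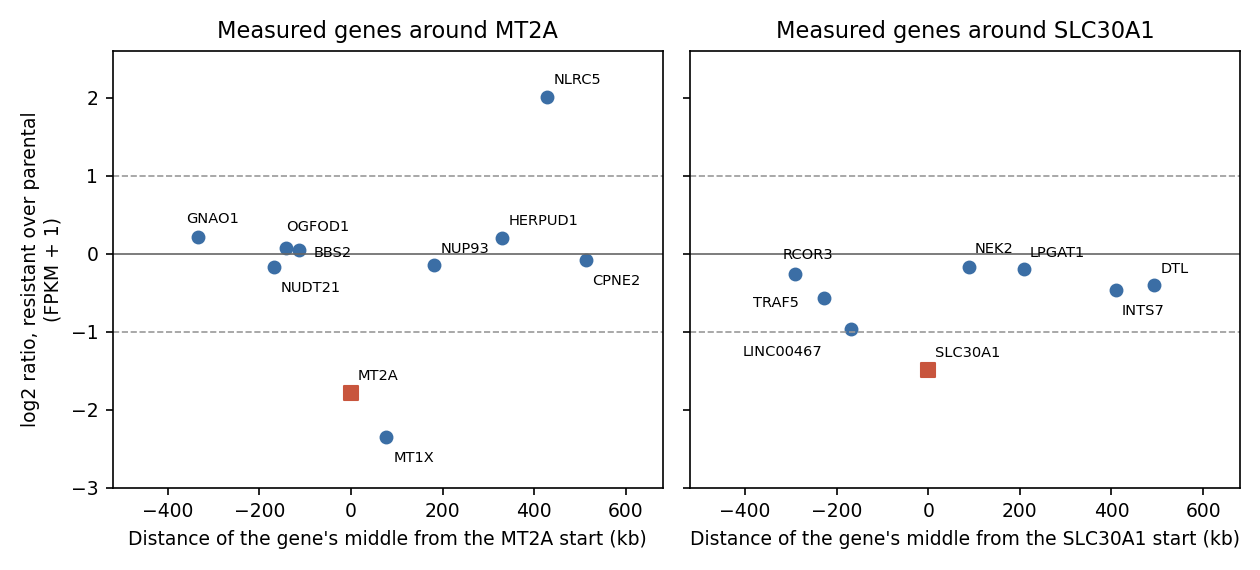
Log2 ratio of resistant over parental FPKM + 1 for compared genes within 500 kb of MT2A (left) and SLC30A1 (right), by the distance of the gene's middle from the start of MT2A or SLC30A1, with positive values towards higher coordinates; squares mark MT2A and SLC30A1 at the locus with a strand, and dashed lines mark 2-fold. MT1X is the only circle under the lower line, and all 7 circles around SLC30A1 lie below 0.

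Genes whose levels lay nearest in both libraries were found by the Euclidean distance of log2(FPKM + 1) over the 2 libraries. Nearest to MT2A were MTRR, the methionine synthase reductase (286 and 84.5 FPKM), USP53 (219 and 51.2 FPKM) and the neuronal adhesion molecule NRCAM (202 and 99.1 FPKM). For MT1X they were ERMAP (30.1 and 4.28 FPKM, at a locus of no strand), the adhesion molecule LSAMP (23.8 and 4.45 FPKM) and the nicotinic receptor subunit CHRNA9 (24.7 and 3.74 FPKM). For the SLC30A1 locus of highest level they were RGCC (214 and 29.7 FPKM), RGS4 (142 and 19.6 FPKM) and CLDN10 (155 and 37.2 FPKM). With 2 libraries such a likeness is 1 level and 1 ratio only.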

How the data were processed

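Polyadenylated RNA was measured in 1 parental and 1 cisplatin-resistant SBC5 library. The authors deposited a table of FPKM by locus with a column for each library, per the file headers. Per the submitters' processing notes, TopHat2 (version not stated) and hg38 were used. How FPKM were computed, and on which annotation, is not given in the sources used here. The labels' sample descriptions tied each column to its library, and 0 columns were left over. The members and gene lists were chosen with earlier results of these data known.

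Loci without a name (2919) or with a name turned into a date (23) were left out, and a name was represented by its locus of highest mean FPKM. Names reaching 1 FPKM in 1 of the libraries or both were compared, with a pseudocount of 1 and a limit of 2-fold in place of a test. Strand was inferred from the table's order: 12905 loci were placed on plus or minus, which was right for 98.7% of the 11745 with an annotated strand, and 6312 got no strand. GENCODE release 29, on the same build, gave positions. Promoters came from RefSeq (GRCh38.p14), matched by symbol for 9 of the 10 names, not for SLC39A14.

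Named were all members with every locus, measured cell type markers, members of the zinc and stress gene lists past 2-fold and others by size of the log2 ratio (whole lists of up to 10), neighbours within 500 kb that were nearest or past 2-fold, and the 3 genes of nearest level. Some genes are not reported here. Alternatives were pseudocounts of 0.1 and 5, a minimum of 0 or 5 FPKM, libraries brought to equal sums or to a median ratio of 1, summed loci, loci with a strand only and a 4-fold limit. The calculation was tested on simulated data. Depth could not be recovered from FPKM, so no counting interval is given. Python 3.11.15, pandas 2.3.3, NumPy 2.4.6 and matplotlib 3.10.9 were used.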

Additional observations from a re-analysis of the deposited data

How the results depend on the processing

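MT2A, MT1X and SLC30A1 stayed at least 2-fold lower, and no other measured member passed 2-fold, under all 8 alternatives of pseudocount, filter, scaling and locus. Besides SLC30A1, the 8 members with a locus had 1 each, with a strand and above 5 FPKM. For them the filters, summed loci and loci with a strand could not change the value, so only pseudocount and scaling were informative. Log2 ratios ranged from -1.86 to -1.72 for MT2A, from -2.56 to -1.76 for MT1X (the latter with a pseudocount of 5) and from -3.83 to -1.49 for SLC30A1 (the latter with loci of a strand only). With a 4-fold limit MT1X and SLC30A1 were the 2 members that passed. Scaling to an equal sum moved the median of all genes from -0.04 to -0.12, and division by the median ratio moved it to 0.00045. The count of all genes at least 2-fold higher, 407, was 614 with a pseudocount of 0.1, 142 with a pseudocount of 5 and 76 with a 4-fold limit. The count at least 2-fold lower, 335, was 478 with a pseudocount of 0.1, 136 with a pseudocount of 5 and 60 with a 4-fold limit. A pseudocount of 5 and a 4-fold limit give fewer genes by construction. The depth of a locus is unknown, which limits most the SLC30A1 loci without a strand. No paired analysis was possible because each group has 1 library.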

Other observations

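The number of metal response cores in the promoter was also set beside the log2 ratio of every gene compared that had a RefSeq promoter. Of 73 genes with 4 or more cores, 2 (2.74%) were at least 2-fold lower, and these were MT1X and MT2A. In the same group 1 gene (1.37%) was at least 2-fold higher, ADGRB3, with 0.327 FPKM in parental against 1.95 FPKM in resistant cells. Of 5512 genes with no core, 2.74% were at least 2-fold lower and 3.05% higher. The share lower with 4 or more cores comes from the chosen MT1X and MT2A alone, so nothing is read from its equality with this share. With 1 core 1.77% were lower and 3.37% higher, and with 3 cores 2.16% and 3.46%. Of 870 genes with 2 cores, 2.53% were at least 2-fold lower, SLC30A1 among them, and 2.41% were higher. The median log2 ratio was -0.04 with no core and -0.02 with 4 or more. MT2A and MT1X were chosen with their values known, so their place in this count is a description.

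Of 15 other SLC30 and SLC39 promoters, 5 held a core, with at most 2 in 1 promoter (SLC30A3).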
